A study of Mus musculus with 12 samples.

Results

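The genes examined were 8 complement components and receptors chosen by symbol from the 33024 gene symbols of the cortex count table: C1qa, C1qb and C1qc for the subunits of C1q, C4b and C3 for the components cleaved next, C3ar1 and C5ar1 for the receptors of the small fragments C3a and C5a, and Itgam for the alpha chain (CD11b) of CR3. All 8 were found and all 8 passed the filter on low counts that left 16059 genes. The samples were 12 bulk RNA libraries from the cortex of C57BL/6 mice of the abstinence arm, 7 from controls and 5 from ethanol-administered mice. Mice were 30 days old at the start. Ethanol-administered mice chose between water and 20% (v/v) ethanol in nightly sessions of 12 h over 35 sessions and then rested for 14 days before behavioural tests and tissue harvest, whereas controls, labelled Vehicle, were given water in both bottles. Both groups were perfused with saline before the cortex was taken and frozen. The libraries, numbered within each group, were taken as 1 mouse each, which the labels do not state; p-values measure the spread between these samples, which may otherwise be technical. The sex of the mice is not given in the labels.

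Complement is a cascade of blood and tissue proteins that tags material for removal. In the classical arm, the hexameric recognition protein C1q, built from the products of C1qa, C1qb and C1qc, binds its target and sets off cleavage of C4 and then C3, whose fragments are read by receptors on phagocytes. In the brain, C1q is made mainly by microglia, and the tagging of synapses with C1q and C3, read by the complement receptor CR3, is known as a route of synapse removal during development and disease.

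Total counts ranged from 31768076 to 42183029 per library, and 3 counts, taken as the floor of detection, corresponded to between 0.0711 and 0.0944 CPM (counts scaled to library size with TMM factors). Control mouse 5 and ethanol mouse 1 held the 2 deepest libraries, and results were also computed without them. Among whole values from 1 to 20 in the table, 73.0% were even (60.2% from 21 to 100), the counting options are not given in the sources used here, and the cause was not tested. Cortical marker genes were present in both groups, with Slc17a7, the vesicular glutamate transporter of cortical excitatory neurons, at 1954 ± 144 CPM (SD, n = 7) in controls and 1905 ± 223 CPM (SD, n = 5) in ethanol-administered mice. Striatal markers, however, summed to between 1002 and 2401 CPM in controls and between 236 and 305 CPM in ethanol-administered mice, and hippocampal markers to between 120 and 168 CPM and between 249 and 332 CPM. These values separated the groups completely, so that ethanol and the regional make-up of the tissue cannot be told apart in any result below.

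C1qa, C1qb and C1qc lie side by side on the minus strand of chromosome 4 of GRCm39, between 136606009 and 136626161, a stretch of 20.2 kb. C3 is on chromosome 17 from 57510964 to 57535155 and C4b on the same chromosome from 34947354 to 34962912, with the closely related C4a 65.2 kb away. C3ar1 (chromosome 6 from 122823393 to 122833122), C5ar1 (chromosome 7 from 15980668 to 15993465) and Itgam (chromosome 7 from 127661808 to 127717753) are unlinked to the C1q cluster. Because the C1q genes moved together and C3 moved most, the promoters of C1qb, C1qc and C3 are shown, each from 250 bases before to 50 bases after the RefSeq start site, 5′ to 3′ on the strand of the gene. The RefSeq table, built on GRCm38.p6, held 6 of the 8 genes; C1qa and C4b had no entry. Each sequence matched GRCm39 at 1 place, chr4:136613462-136613761 for C1qb, chr4:136620176-136620475 for C1qc and chr17:57535087-57535386 for C3. Capitals mark the letters searched for on both strands, GAGGAA as the core bound by PU.1, a factor of microglia and other myeloid cells, and TTGCNNAA as a C/EBP element. A further motif, the interferon response element (GAAA repeated after any 2 bases), was found in none of the 6 windows.
C1qb: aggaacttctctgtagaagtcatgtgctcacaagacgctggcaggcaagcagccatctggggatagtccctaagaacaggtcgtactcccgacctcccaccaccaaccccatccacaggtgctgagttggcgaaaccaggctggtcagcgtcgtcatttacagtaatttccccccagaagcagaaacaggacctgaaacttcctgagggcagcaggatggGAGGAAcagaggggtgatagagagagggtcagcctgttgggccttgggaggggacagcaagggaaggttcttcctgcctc
C1qc: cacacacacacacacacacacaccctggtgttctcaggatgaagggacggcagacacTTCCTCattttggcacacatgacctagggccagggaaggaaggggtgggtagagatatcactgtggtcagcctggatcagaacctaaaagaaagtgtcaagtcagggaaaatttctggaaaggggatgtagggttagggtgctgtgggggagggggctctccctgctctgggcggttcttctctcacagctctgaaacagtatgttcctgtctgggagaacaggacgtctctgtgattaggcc
C3: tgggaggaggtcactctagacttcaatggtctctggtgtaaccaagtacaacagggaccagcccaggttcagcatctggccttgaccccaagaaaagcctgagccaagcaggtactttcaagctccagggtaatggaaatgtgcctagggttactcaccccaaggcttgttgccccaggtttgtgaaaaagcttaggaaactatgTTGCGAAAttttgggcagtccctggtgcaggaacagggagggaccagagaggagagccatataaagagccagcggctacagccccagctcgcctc
C1qb held GAGGAA at 30 bases before the start site and C1qc held it on the opposite strand at 193 bases before, while C3 held TTGCNNAA at 45 bases before. No 2 motifs overlapped. Of 32851 promoters in the table, 28.3% held GAGGAA, 10.8% TTGCNNAA and 3.44% the interferon element, so these matches describe the windows and identify no site. The Itgam window held GAGGAA at 3 places, and those of C3ar1 and C5ar1 held none of the 3 motifs.

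Per kilobase of the canonical transcript, the C1q genes stood far above the other members in the control cortex. C1qa had 40.1 CPM per kb (from 30.3 to 48.6, n = 7), C1qc 23.2 (from 17.3 to 27.8) and C1qb 17.1 (from 15.3 to 20.1). Before division by length, their control means were nearly equal, at 43.6 CPM for C1qa, 42.9 for C1qc and 43.4 for C1qb. The order of the 3 subunits thus rests on the canonical lengths of 1.087, 1.852 and 2.532 kb. For C1qb the union of all annotated exons is longer, at 6246 bases. C4b followed at 4.07 CPM per kb and Itgam at 1.27. The receptors C3ar1 and C5ar1 had 0.534 and 0.279 CPM per kb, and C3 had the lowest mean at 0.144, with a range (from 0.0734 to 0.218) that overlapped that of C5ar1 (from 0.177 to 0.385). These levels use transcript lengths of a newer annotation than that of the counts.

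To ask whether complement transcripts differed after ethanol and abstinence, the groups were compared gene by gene. Of the 8 members, 7 had a negative log2 fold change, ethanol over control (log2FC, median over the 8 members -0.47, against 0.000072 over all genes tested). A gene counted as called when its adjusted p was under 0.05 and its log2FC beyond 0.5 in either direction. These thresholds follow those of the original analysis. Of the 8 members, 2 were called lower, C1qb and C3, where 4.09% of all genes tested were called lower. None was called higher (0 of 8 by edgeR, DESeq2 and limma voom, and 0 at an unadjusted p under 0.05 by any of these tools), where 4.20% of all genes were. At an adjusted p under 0.05 without a fold minimum, 5 members were lower (C1qa, C1qb, C1qc, C3 and C3ar1) and 0 higher, against 11.6% of all genes lower and 12.1% higher. The fold minimum runs through the middle of the group, since C1qa, C1qb, C1qc and C3ar1 all had log2FC values between -0.53 and -0.46. In bulk tissue, fewer cells of a type and less RNA per cell cannot be told apart, which applies to each gene below.

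**Figure D1:**
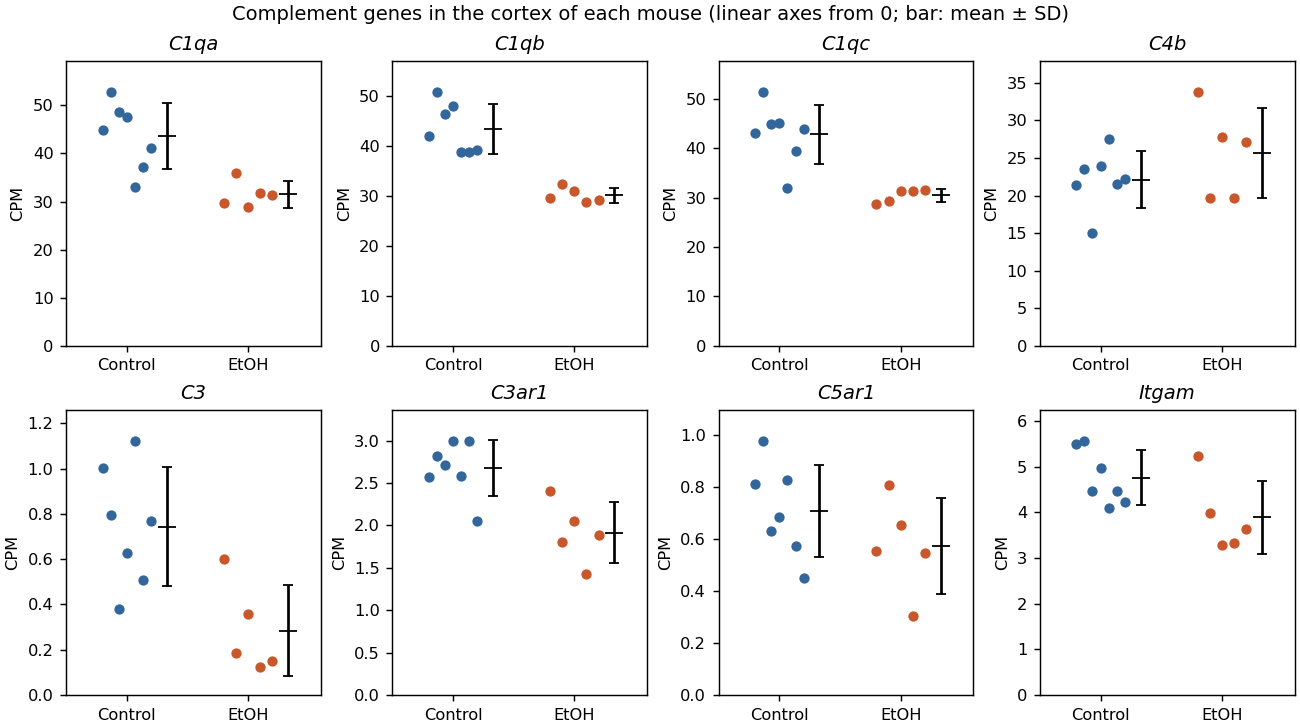
CPM of the 8 complement genes on linear axes from 0, with 1 point per mouse (7 controls in blue, 5 ethanol-administered mice in orange) and the mean ± SD beside each group. C1qb and C1qc show groups without overlap. C1qa, C3 and Itgam each have 1 ethanol-administered mouse within the control range, and C4b is the only panel whose mean is higher in the ethanol group.

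The 3 C1q subunit genes were lower by similar amounts. C1qb was at 29.5, 32.4, 30.8, 28.8 and 29.2 CPM in ethanol-administered mice 1 to 5, and at 38.7 (lowest), 41.9 (median) and 50.8 CPM (highest) in controls. The groups did not overlap, as was the case in the lower direction for 4.96% of all genes and in the higher direction for 4.84%. The mean fell from 43.4 ± 4.95 CPM in controls to 30.1 ± 1.499 CPM in ethanol-administered mice (SD, n = 7 and 5), a log2FC of -0.52 ± 0.08 (SE, edgeR adjusted p = 7.8e-05). C1qc was at 28.8, 29.3, 31.5, 31.3 and 31.7 CPM in ethanol-administered mice and between 32.01 and 51.5 CPM (median 44.0) in controls, again without overlap, although control mouse 5, the deepest control library, lay only just above the ethanol group. Its log2FC was -0.49 ± 0.09 (SE, edgeR adjusted p = 0.00066), which passed the p threshold and fell just short of the fold minimum. C1qa was at 29.7, 35.9, 28.8, 31.7 and 31.3 CPM in ethanol-administered mice and between 32.96 and 52.9 CPM (median 44.9) in controls. One ethanol-administered mouse, mouse 2, lay above control mouse 5, and the other 4 lay below every control. The log2FC of C1qa was -0.47 ± 0.10 (SE, edgeR adjusted p = 0.0027).

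The spread of the C1q genes was wider among controls than among ethanol-administered mice, with coefficients of variation of 15.9%, 11.4% and 13.98% against 8.74%, 4.97% and 4.42% for C1qa, C1qb and C1qc. Control mouse 5 had the lowest C1qa and C1qc values among controls. Without it, all 3 subunits were called, with log2FC values of -0.54, -0.56 and -0.56, and without control mouse 2, which had the highest values, they were -0.42, -0.48 and -0.44 and none of the 3 reached the fold minimum. C1qb also missed it without control mouse 4 (-0.50), C1qa reached it without control mouse 6 (-0.50) or ethanol mouse 2 (-0.53), and C1qc without control mouse 6 (-0.51) or ethanol mouse 3, 4 or 5 (-0.50, -0.50 and -0.51). The adjusted p of all 3 genes stayed under 0.05 with each mouse left out. The balance between the subunits moved little. C1qa made up 33.5 ± 1.13% (SD, n = 7) of the summed C1q CPM in controls and 34.1 ± 1.86% (SD, n = 5) in ethanol-administered mice, C1qb 33.5 ± 1.88% and 32.7 ± 1.13%, and C1qc 33.01 ± 1.47% and 33.1 ± 1.90%. After removal of group means, the 3 genes also varied together between mice (Pearson r of log2 CPM 0.85 for C1qa with C1qb, 0.82 for C1qa with C1qc and 0.67 for C1qb with C1qc, over 12 mice that share each library's depth and composition). No stretch of 100 bases was shared between transcripts of different C1q genes. Exons of an annotated non-coding gene on the opposite strand (Gm69251) overlap those of C1qb and C1qc but not those of C1qa. Such genes also overlap C3 (Gm65552) and C4b (Gm65055), and a coding gene on the same strand overlaps Itgam (Gm49368), so that reads there cannot be told apart without knowing how strand and overlaps were counted.

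Markers of microglia, the main source of C1q in the brain, were lower as well. Of 15 microglia markers, all had a negative log2FC (median -0.23), 8 had an adjusted p under 0.05 (11.6% of all genes were lower at that threshold) and none reached the fold minimum (0 called by edgeR, DESeq2 and limma voom). At an unadjusted p under 0.05 in edgeR, 12 of 15 were lower, but the share of all genes at that threshold was not computed. Tmem119, a marker of resident microglia, fell from 22.3 ± 1.33 CPM in controls to 17.9 ± 1.23 CPM in ethanol-administered mice (SD, n = 7 and 5), a log2FC of -0.32 (edgeR adjusted p = 0.0021). Csf1r, the receptor on which microglia depend for survival, had a log2FC of -0.15 (edgeR adjusted p = 0.028). P2ry12, an ADP receptor of resting microglia, was at 34.7 ± 3.93 and 32.99 ± 2.27 CPM (log2FC -0.07, 95% interval from -0.24 to 0.09, edgeR adjusted p = 0.52). The summed level of the 15 markers was between 418 and 469 CPM in controls and between 362 and 396 CPM in ethanol-administered mice, and all had counts in every mouse. The log2FC of each C1q subunit was below that of all 15 markers, the lowest of which was P2ry13 at -0.35; this difference was not tested.

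**Figure D2:**
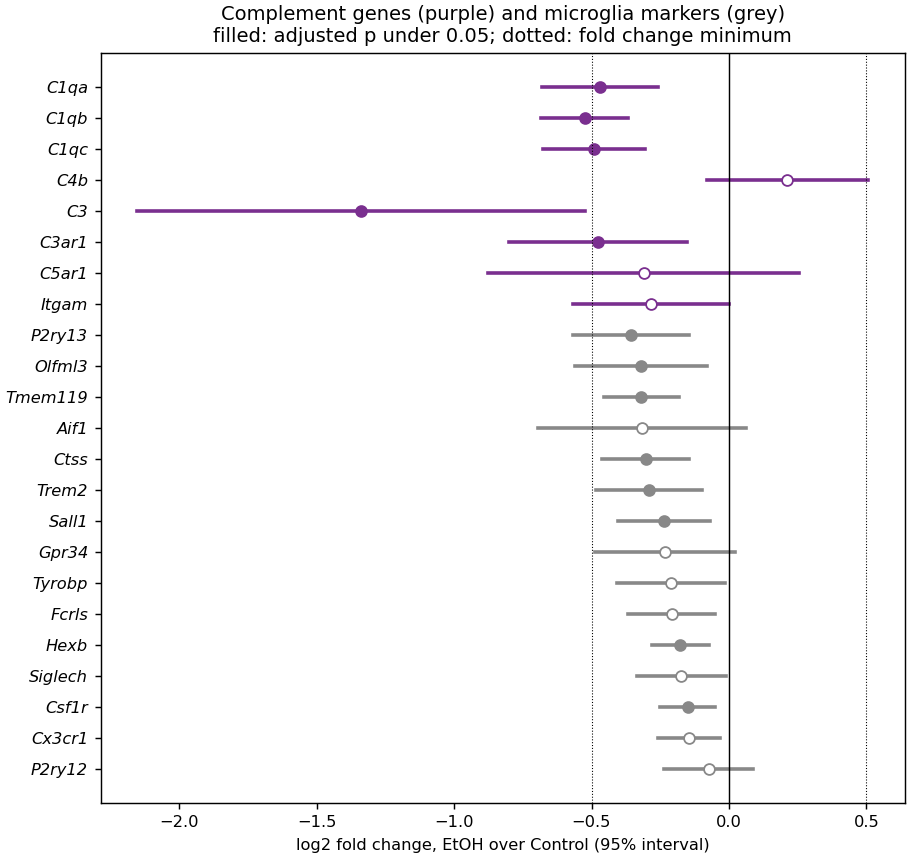
Log2FC values (ethanol over control) with 95% intervals for the 8 complement genes in purple and 15 microglia markers in grey, filled where the adjusted p was under 0.05, with dotted lines at the fold minimum of 0.5. The C1q genes lie near -0.5, left of all the markers, which range from -0.35 to -0.07, and many of the intervals overlap.

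Per mouse, the mean log2 CPM of the C1q genes was 5.43 ± 0.20 (SD, n = 7) in controls and 4.94 ± 0.05 (SD, n = 5) in ethanol-administered mice, a difference of -0.48, while the mean over the microglia markers was 4.41 ± 0.07 and 4.18 ± 0.06, a difference of -0.23. The C1q mean less the marker mean was 1.01 ± 0.14 in controls (from 0.79 to 1.17) and 0.76 ± 0.07 in ethanol-administered mice (from 0.68 to 0.85). These ranges overlapped, since control mouse 5 lay within the ethanol range. With the marker mean as a covariate, itself tied to the group (76.1% of the group variance), no member kept an adjusted p under 0.05 (0 of 8 in edgeR), and the log2FC values of C1qa, C1qb and C1qc were -0.05, -0.19 and -0.12 with standard errors of 0.17, 0.12 and 0.15. Under the same covariate C3 was at -1.97 ± 0.71 (SE), C3ar1 at -0.45 ± 0.32 and Itgam at -0.25 ± 0.28, close to or beyond their values without it, whereas C5ar1 was at -0.16 ± 0.54 and C4b changed sign to -0.10 ± 0.27. After removal of group means, the correlation with the marker mean over 12 mice was 0.62, 0.74 and 0.67 for the 3 C1q genes and between -0.33 and 0.08 for the other 5 members. The same correlation with the mean of 8 astrocyte markers was 0.50, 0.52 and 0.76 for C1qa, C1qb and C1qc.

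**Figure D3:**
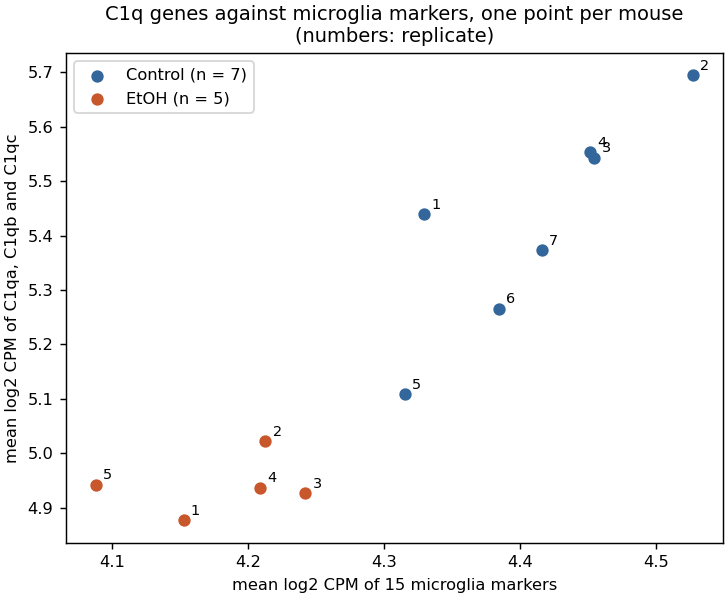
Mean log2 CPM of C1qa, C1qb and C1qc against the mean log2 CPM of 15 microglia markers, with 1 point per mouse labelled by its replicate number. Ethanol-administered mice (orange) lie below the controls (blue) on both axes, from 4.88 to 5.02 against 5.11 to 5.69 for C1q and from 4.09 to 4.24 against 4.32 to 4.53 for the markers.

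Of the components cleaved after C1q binds, C3 fell and C4b did not pass the test. C3, on which all arms of the cascade converge, was at 0.602, 0.187, 0.358, 0.121 and 0.152 CPM in ethanol-administered mice and between 0.379 and 1.123 CPM (median 0.769) in controls. Ethanol mouse 1 lay within the control range and the other 4 lay below every control. The mean fell from 0.743 ± 0.263 CPM in controls to 0.284 ± 0.200 CPM in ethanol-administered mice (SD, n = 7 and 5), a log2FC of -1.34 ± 0.39 (SE, 95% interval from -2.15 to -0.52, edgeR adjusted p = 0.019). C3 rests on between 4 and 46 counts per mouse, 11 of the 12 of them even, and the lowest values lie close to the floor of 3 counts. If both ends of a read pair were counted, these numbers and the floor would stand for fewer fragments than counts. With all counts divided by 2, the log2FC of C3 was -1.34 (edgeR adjusted p = 0.018). Halving nearly keeps the ratios between mice, so this log2FC was set in advance and does not test the counting. The call held with each mouse left out (adjusted p from 0.0039 to 0.0496), with log2FC values from -1.85, without ethanol mouse 1, to -1.15.

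C4b, which encodes the C4 of the classical and lectin arms and is expressed in the brain by astrocytes and oligodendrocytes among other cells, was at 33.8, 19.7, 27.8, 19.7 and 27.1 CPM in ethanol-administered mice and between 14.99 and 27.5 CPM (median 22.2) in controls. Of the 5 ethanol-administered mice, 2 lay above every control and 2 below the control median. The means were 25.6 ± 6.01 (SD, n = 5) and 22.1 ± 3.78 CPM (SD, n = 7), with a log2FC of 0.21 whose 95% interval ran from -0.08 to 0.51 (edgeR adjusted p = 0.29). Ethanol mouse 1 had the highest value, and without it the log2FC was 0.09 (edgeR adjusted p = 0.67). Of 5396 stretches of 100 bases in the longest C4b coding transcript, 861 also occur in C4a, so part of the reads could be shared; C4a itself had 3.27 ± 0.894 CPM (SD, n = 5) against 2.53 ± 0.519 (SD, n = 7; edgeR adjusted p = 0.15), and with the counts of both genes summed the log2FC was 0.23 (edgeR adjusted p = 0.19). Among astrocyte markers, Gfap, an intermediate filament gene, rose from 88.3 ± 15.5 CPM in controls to 150.2 ± 13.3 CPM in ethanol-administered mice (SD, n = 7 and 5), and it was the 1 called higher of 8 markers (4.20% of all genes). Without the fold minimum Aqp4 and Gja1 were also higher (log2FC 0.27 and 0.17) and S100b lower (-0.39). The oligodendrocyte markers summed to between 4474 and 5938 CPM in controls and between 2998 and 5360 CPM in ethanol-administered mice, with 2 of 8 called lower (4.09% of all genes), 7 of 8 lower at an adjusted p under 0.05 (11.6% of all genes) and a median log2FC of -0.42. The part of these cells in the C4b values was not tested. After removal of group means, the Pearson r of C4b with C3 was 0.80 over 12 mice, which share each library's depth and composition.

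Among the receptor genes, C3ar1 was lower at the p threshold, and C5ar1 and Itgam did not pass it. C3ar1 was at 2.41, 1.80, 2.06, 1.43 and 1.88 CPM in ethanol-administered mice and between 2.05 and 3.00 CPM (median 2.71) in controls, so that 3 of 5 ethanol-administered mice lay below every control. The log2FC was -0.48 ± 0.15 (SE, edgeR adjusted p = 0.033), but the adjusted p stayed under 0.05 in only 5 of the 12 fits that left out 1 mouse (from 0.019 to 0.085, the highest without ethanol mouse 4). It reached the fold minimum as well without control mouse 7 (-0.53) or ethanol mouse 1 (-0.57) or 3 (-0.50). Itgam was at 5.24, 3.98, 3.28, 3.34 and 3.65 CPM in ethanol-administered mice and between 4.10 and 5.57 CPM (median 4.48) in controls. Ethanol mouse 1 lay in the upper part of the control range, and the other 4 lay below every control. The log2FC was -0.28 ± 0.13 (SE, edgeR adjusted p = 0.14), and without ethanol mouse 1 it was -0.41 (edgeR adjusted p = 0.030). C5ar1 was at 0.556, 0.809, 0.656, 0.303 and 0.547 CPM in ethanol-administered mice and between 0.449 and 0.980 CPM (median 0.687) in controls, so that the groups overlapped broadly. With between 10 and 34 counts per mouse, all of them even, the 95% interval of its log2FC of -0.31 ran from -0.88 to 0.26 (edgeR adjusted p = 0.43), a range that includes the log2FC values of the C1q genes. The log2FC of C5ar1 was -0.15 without ethanol mouse 4 and -0.47 without ethanol mouse 2.

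Without the 2 deepest libraries, which leaves 6 controls and 4 ethanol-administered mice, 5 members were called lower, where 640 of 16093 genes tested were called lower and 798 higher. Their log2FC values were -0.50 for C1qa, -0.54 for C1qb, -0.53 for C1qc, -0.58 for C3ar1 and -1.71 for C3, and Itgam was at -0.45 (edgeR adjusted p = 0.018).

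**Figure D4:**
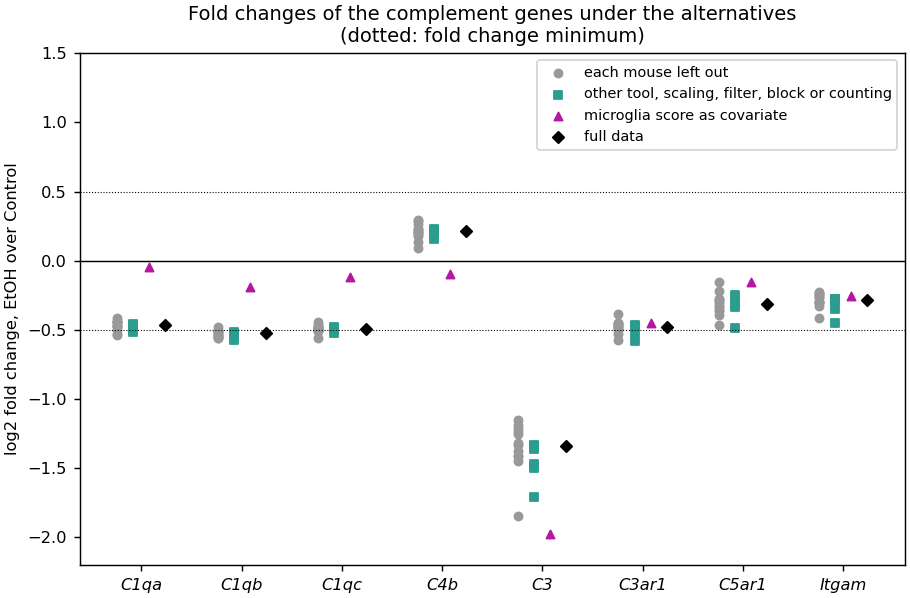
Log2FC values of the 8 complement genes in the full data (black), with each mouse left out (grey), under other tools, scalings, filters, the replicate block or countings (green) and with the microglia marker mean as a covariate (magenta), with dotted lines at the fold minimum. The C1q genes stay close to the minimum, C3 ranges from -1.15 to -1.85 over the mice left out, and the covariate brings the C1q genes to between -0.19 and -0.05.

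Other phagocytes and blood cells were checked beside these genes. Of 8 border macrophage markers, 7 were tested and 3 were called lower (4.09% of all genes), among them the scavenger receptor gene Cd163, which fell from 3.02 ± 0.593 CPM in controls to 1.28 ± 0.441 CPM in ethanol-administered mice (SD, n = 7 and 5). The summed level of these markers was between 24.6 and 36.8 CPM in controls and between 17.2 and 29.4 CPM in ethanol-administered mice, and all had counts in every mouse. Of 9 neutrophil and monocyte markers, 3 were tested and none was called (0 of 3 in edgeR), although the median log2FC of these 3 was -1.29. The list summed to between 0.344 and 4.46 CPM in controls and between 0.364 and 4.38 CPM in ethanol-administered mice. Ly6g, the defining surface marker of neutrophils, was at 0 in every ethanol-administered mouse and at a median of 0 in controls. Choroid plexus markers summed to between 7.57 and 21.3 CPM in controls and between 11.6 and 989 CPM in ethanol-administered mice, and meningeal fibroblast markers to between 51.9 and 77.5 and between 40.8 and 134.5 CPM. The part of these cells in the complement results was not tested.

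A wider set of 52 complement genes, listed by arm of the cascade, gave calls in both directions. Of these, 34 passed the filter, 3 were called higher (C7, Csmd1 and Sez6l) and 3 lower (C1ra, Cd59b and Itgb2), against 4.20% and 4.09% of all genes. Itgb2, the beta chain that pairs with the product of Itgam to form CR3, fell from 5.94 ± 0.624 CPM in controls to 4.15 ± 0.169 CPM in ethanol-administered mice (SD, n = 7 and 5) without overlap between the groups, a log2FC of -0.52 ± 0.10 (SE, edgeR adjusted p = 0.0012). It fell short of the fold minimum without control mouse 2, 3 or 7 or ethanol mouse 1 (log2FC -0.48, -0.49, -0.50 and -0.49). C1ra, which encodes the protease C1r of the C1 complex, fell from 2.65 ± 0.567 to 1.73 ± 0.425 CPM, a log2FC of -0.62 (edgeR adjusted p = 0.025), and its adjusted p exceeded 0.05 in 3 of the 12 fits that left out 1 mouse (0.072, 0.055 and 0.053 without ethanol mouse 1, 3 or 4). Of the other 4 tested genes of the classical arm (C1s1, C1s2, C2 and C4a), none was called (0 of 4 in edgeR). Among the further receptors, Lrp1, the gene of a large endocytic receptor, had 522 ± 88.9 CPM in controls and 693 ± 53.0 CPM in ethanol-administered mice (SD, n = 7 and 5) and was higher at the p threshold but not the fold minimum (log2FC 0.41, edgeR adjusted p = 0.0051), as was Cd93 (log2FC 0.34, edgeR adjusted p = 0.032). Calr, the gene for calreticulin, had 319.7 ± 59.9 and 272 ± 10.3 CPM (edgeR adjusted p = 0.12).

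Among regulators, 2 of 16 tested genes were called higher and 1 lower, against 4.20% and 4.09% of all genes. Cd59b, an inhibitor of the membrane attack complex, fell from 1.65 ± 0.481 CPM in controls to 0.716 ± 0.165 CPM in ethanol-administered mice (SD, n = 7 and 5) without overlap, a log2FC of -1.20 ± 0.24 (SE, edgeR adjusted p = 0.0017). The related Cd59a was at 4.57 ± 1.02 and 3.48 ± 0.770 CPM (edgeR adjusted p = 0.11). The neuronal genes Sez6l and Csmd1, which encode membrane proteins with complement control domains, rose from 247 ± 23.0 to 362 ± 16.9 CPM (log2FC 0.55, edgeR adjusted p = 7.7e-06) and from 89.7 ± 21.4 to 128.8 ± 8.82 CPM (log2FC 0.52, edgeR adjusted p = 0.0067). Of the related genes, Sez6 was lower at the p threshold but not the fold minimum (log2FC -0.30, edgeR adjusted p = 0.030), and Sez6l2 had a log2FC of 0.04. Csmd1 fell short of the fold minimum without control mouse 2 or 3 or ethanol mouse 5 (log2FC 0.44, 0.50 and 0.49). Clu, the abundant astrocytic gene for clusterin, had 783 ± 56.7 CPM (SD, n = 7) in controls and 796 ± 28.5 CPM (SD, n = 5) in ethanol-administered mice, with a 95% interval of the log2FC from -0.09 to 0.14. In the terminal arm, C7 rose from 0.824 ± 0.349 to 1.66 ± 0.406 CPM (log2FC 1.00 ± 0.28 SE, edgeR adjusted p = 0.015, and 0.051 without ethanol mouse 4), C8g was the only other gene tested (2.52 ± 0.54 and 2.78 ± 0.148 CPM, edgeR adjusted p = 0.52), and Hc, C6, C8a, C8b and C9 did not pass the filter. In the lectin arm, 4 of 9 genes were tested, and Masp1, a serine protease gene of that arm, had 12.6 ± 1.09 and 13.6 ± 0.777 CPM (edgeR adjusted p = 0.31), and the scavenger receptor collectin gene Colec12 had 9.77 ± 1.33 and 9.19 ± 2.4 CPM (edgeR adjusted p = 0.71). The alternative arm was represented by Cfp, the gene for properdin, alone, at 15.1 ± 2.35 and 15.1 ± 2.80 CPM (edgeR adjusted p = 1.0), while Cfb and Cfd did not pass the filter.

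**Figure D5:**
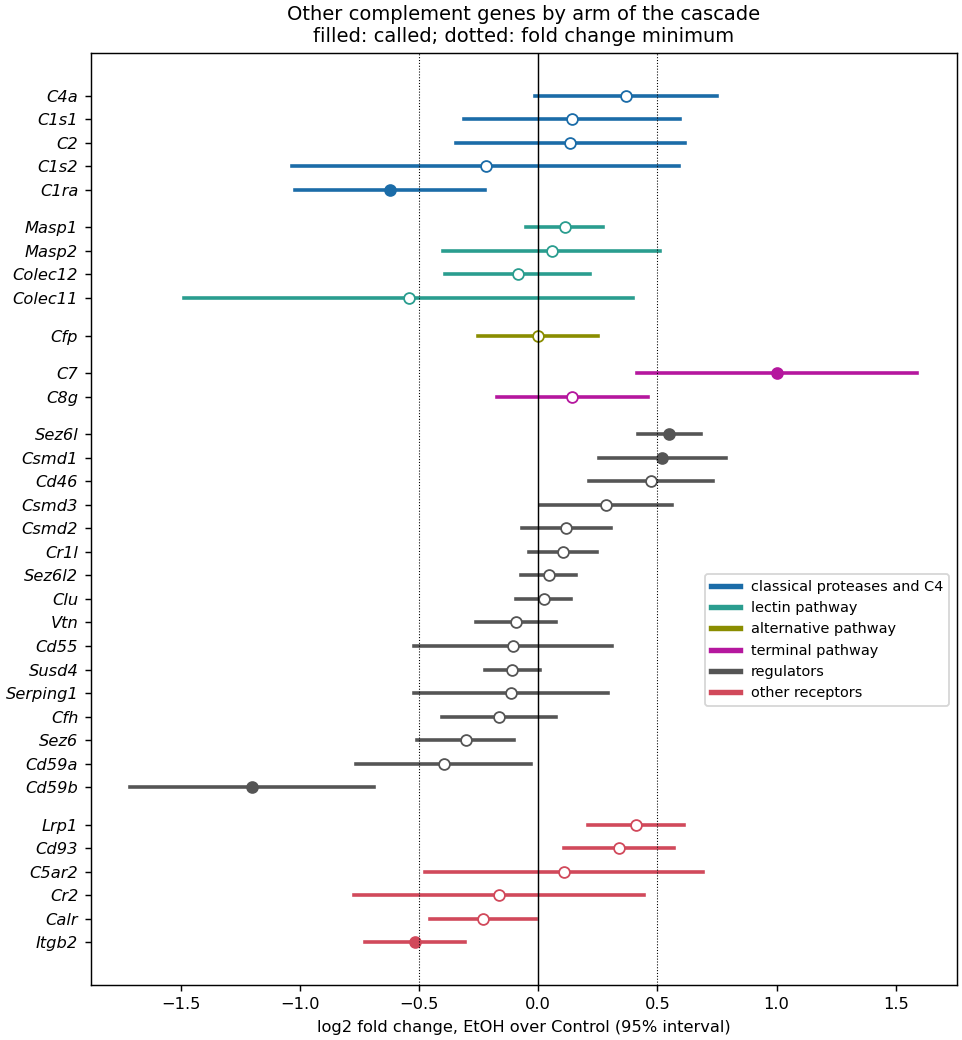
Log2FC values (ethanol over control) with 95% intervals for 34 further complement genes, coloured by arm of the cascade and filled where called, with dotted lines at the fold minimum of 0.5. Called genes lie on both sides of 0, from Cd59b at -1.20 to C7 at 1.00, and most intervals include 0.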

How the data were processed

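Frozen cortex of 12 mice was sequenced by BGI. Per the study's methods and the submitters' processing notes, reads were checked with FastQC 0.11.9, aligned to GRCm39 with STAR and Gencode Release 28, counted with featureCounts and compared with DESeq2. Strand, read pair and multi-mapping options are not given in the sources used here. The authors deposited expected counts per gene symbol without normalization, of which 61 symbols hold values that are not whole, and these were rounded. Every column matched a mouse by name.

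Counts were filtered with filterByExpr, scaled with TMM and tested with edgeR 4.0.16 (quasi-likelihood test, R 4.3.3) over 16059 genes with Benjamini-Hochberg adjustment, 7 against 5 mice. Standard errors are the log2FC divided by the square root of F, and intervals are at 95%. Log2 CPM values used a prior count of 2. Positions and transcript lengths are from Gencode release M39 of GRCm39. Members and gene lists were chosen with earlier results of these data known. Genes named were the 8 members, called genes of the wider lists, up to 2 uncalled ones per list with the highest CPM, genes most like C1q, C3 and C4b, and defining markers; C1s2, C2, Cd59a, Cd46, Cd93, Hc, Sez6, Aqp4, Gja1, S100b and genes that did not pass the filter were named after their values were seen. Alternatives were DESeq2 1.42.0, limma 3.58.1 (voom), other scalings and filters, the replicate block, marker covariates and each mouse left out. On simulated data with 200 genes changed 2-fold, edgeR over 15902 genes recovered 197 with 5 false calls. The C1q genes and C3ar1 changed by less than 2-fold, so this recovery does not describe calls near the fold minimum.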

Additional observations from a re-analysis of the deposited data

Results flagged for a closer look

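The gap of the lowest or highest mouse to its nearest neighbour, as a share of the whole range of its group, was checked for 8 members in both groups, and 2 of 16 checks exceeded the 95% limit of Dixon's test, which chance exceeds in about 1 of 20. For C4b, control mouse 3 was the lowest control, at a log2 CPM of 3.911 (14.99 CPM), where the next control had 4.42. Without this mouse the log2FC of C4b was 0.14 (edgeR adjusted p = 0.47), further from the threshold than with it. For C3ar1, control mouse 7 was the lowest control, at a log2 CPM of 1.078 (2.05 CPM), where the next had 1.39. Without this mouse C3ar1 was called lower, with a log2FC of -0.53 (edgeR adjusted p = 0.019).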

How the results depend on the processing

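With DESeq2 or limma voom, and with upper quartile or relative log expression factors, C1qb and C3 were the members called, as in the fit of all mice with TMM factors, and no member was called higher under any alternative. The number of members called lower was 1 (C1qb) with at least 10 counts in every mouse, which leaves out C3 (542 of 14722 genes lower). It was 5 without a fold minimum and 5 without the 2 deepest libraries (640 of 16093 genes lower). It ranged from 1 to 4 with each mouse left out, and was 1 without control mouse 2 or 4, where C1qb missed the fold minimum, and 4 without control mouse 5 or 6 or ethanol mouse 3. The wider genes called lower numbered from 1 to 3 with each mouse left out, the 1 (Cd59b) without ethanol mouse 1. Without a fold minimum, 6 wider genes were higher (Cd46, Cd93 and Lrp1 besides the 3 called) and 4 lower (Sez6 besides the 3 called), and 1947 genes in all were higher and 1863 lower. With the microglia marker mean as a covariate, 149 genes were higher and 189 lower, 0 members and 0 wider genes were called although C3 (-1.97), C3ar1 (-0.45) and C1ra (-0.58) had log2FC values close to or beyond those without the covariate, and 2 log2FC values changed sign, C4b to -0.10 and Csmd1 to -0.17. With striatal and hippocampal marker means as covariates, tied to the group with 97.5% of its variance, 5 genes were higher and 0 lower, no member or wider gene was called (0), and log2FC values that changed sign were 0.13 for C1qa, 0.46 for C1qc, 0.18 for C3ar1, 0.52 for Itgam, -0.64 for C7, 0.93 for Cd59b and -0.68 for Csmd1, with standard errors between 0.52 and 1.53. C3ar1 lost its adjusted p under 0.05 without an expression filter (0.051). The deepest libraries, the halved counts and the summed C4 counts were chosen after seeing the data. Halved counts, which nearly keep the ratios between mice, left C1qb and C3 as the members called. For changes given without a reason, the cause was not tested. Replicate numbers name different mice in each group, and same-numbered mice did not deviate together (correlations from -0.11 to 0.02). With the replicate block over numbers 1 to 5, 689 genes were higher and 621 lower, 3 members (C1qa, C1qb and C3) were called lower, C3ar1 and C1ra had adjusted p values of 0.068 and 0.087, and Cd46 was called higher. The members with the fewest counts were C3 and C5ar1, at 4 to 46 and 10 to 34 per mouse.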

Other observations

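Hc, which encodes C5, the precursor of the ligand of C5ar1, did not pass the filter, at between 0 and 0.188 CPM in controls and between 0 and 0.880 CPM in ethanol-administered mice, with 4 of 5 ethanol-administered mice above every control. Without an expression filter it was called higher. Cd46, a regulator of C3b and C4b, had an adjusted p of 0.010 in edgeR and a log2FC of 0.47, just under the fold minimum, with 8.84 ± 1.30 CPM (SD, n = 7) in controls and 12.3 ± 2.34 CPM (SD, n = 5) in ethanol-administered mice.

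Likeness to the members was measured as Pearson's r of log2 CPM over 12 mice after removal of group means, among 11563 other genes with a mean of at least 5 CPM, as a description that depth and composition of each library share in. For the mean of the C1q genes, the 5 genes with the highest r were Rnpep (0.97, Spearman's rho 0.92), Vapa (0.96, rho 0.97), Txnl4b (0.96, rho 0.88), Psmd14 (0.96, rho 0.85) and Rpl27a (0.95, rho 0.97), none of which is a microglia marker of the list used. For C3 they were Krr1 (r 0.90, rho 0.89), Cep290 (r 0.88, rho 0.90) and Arl4a (r 0.87, rho 0.85), and for C4b Zfp41 (r 0.88, rho 0.86), Stk24 (r 0.87, rho 0.87) and Zfp955b (r 0.87, rho 0.78).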
